A study of Mus musculus with 48 samples.

Results

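Among 24 single cells of the group titled HEC, the 8 cells with the highest and the 8 cells with the lowest expression of stress-response genes were compared with each other. The stress score of a cell was the mean of log2(value + 0.1) over 6 genes, *Hspa1a*, *Hspa1b*, *Fos*, *Fosb*, *Jun* and *Ier3*, where the value is the number of reads per 10000 reads of that cell. All 24 HEC cells, of 48 cells in the series, received a score. The other 8 HEC cells lay between the cuts, and 24 cells titled AEC served only to set the scores beside another group. The score chose the cells, so the values of its 6 genes are a description. The comparison of the other genes also used the same cells and has no independent replicate.

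The cells were wild-type, from C57 mouse embryos at embryonic day 10, and were taken from the aorta-gonads-mesonephros region, where the first blood stem cells of the embryo arise. They were sorted by flow cytometry, kept on ice, picked singly after deformed cells were set aside, and sequenced as full-length cDNA on a Nanopore instrument. HEC commonly stands for hemogenic endothelial cells, which turn from vessel wall into blood, and AEC for arterial endothelial cells. Their labels, though, give the cell type as hematopoietic stem cells. The labels give neither the sort markers nor the embryo of each cell, so the HEC cells count as 1 sample, all comparisons are without a test, and every SD is a spread between cells.

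The 6 score genes belong to a pair of rapid responses. *Hspa1a* and *Hspa1b* encode the inducible HSP70 chaperone, which binds unfolded proteins and is switched on by heat-shock factors that bind repeats of GAA and TTC. *Fos*, *Fosb* and *Jun* encode subunits of the AP-1 transcription factor, and with *Ier3* they are immediate-early genes, transcribed within minutes of a stimulus without new protein synthesis. Both sets are known to respond to enzymes, cold and handling while tissue is taken apart, and several AP-1 subunits also act in developing blood.

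The promoters of 5 genes are shown because *Jun*, an immediate-early gene, shares a short element with the heat-shock genes that *Fos* lacks in this window. Each line holds the 150 bases before the start site from RefSeq on GRCm38.p6. In the first 4 lines capitals mark GAANNTTC, the core of a heat-shock element, and in the last line they mark TATAAA, the TATA box.
Hspa1a (chr17:34972157-34972306, minus strand): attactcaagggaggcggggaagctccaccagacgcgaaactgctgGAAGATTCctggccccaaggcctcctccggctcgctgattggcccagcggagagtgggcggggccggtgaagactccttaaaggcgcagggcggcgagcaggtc
Hspa1b (chr17:34959239-34959388, minus strand): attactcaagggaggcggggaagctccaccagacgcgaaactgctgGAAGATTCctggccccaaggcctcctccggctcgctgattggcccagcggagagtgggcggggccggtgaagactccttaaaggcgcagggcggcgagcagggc
Hspb1 (chr5:135887769-135887918, plus strand): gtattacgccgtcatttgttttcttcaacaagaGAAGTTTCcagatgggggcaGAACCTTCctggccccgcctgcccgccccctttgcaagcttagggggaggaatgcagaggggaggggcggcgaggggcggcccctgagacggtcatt
Jun (chr4:95052223-95052372, minus strand): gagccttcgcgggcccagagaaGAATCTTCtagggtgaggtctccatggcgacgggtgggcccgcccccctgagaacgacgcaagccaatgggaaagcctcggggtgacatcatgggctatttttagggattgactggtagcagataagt
Fos (chr12:85473740-85473889, plus strand): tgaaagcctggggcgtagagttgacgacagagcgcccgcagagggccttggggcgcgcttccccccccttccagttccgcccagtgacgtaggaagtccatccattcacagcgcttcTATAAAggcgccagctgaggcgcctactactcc

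GAANNTTC reads the same on both strands. Over the 250 bases before the start site it was present in 3 of the 6 score genes, *Hspa1a*, *Hspa1b* and *Jun*, against 6.69% of 32851 promoters of that length. In *Hspa1a* and *Hspa1b* the match began at position -104 from the start site, in *Jun* at -128, and in *Hspb1*, the small heat-shock protein gene that leads the comparison of other genes, matches began at -117 and -97. TATAAA, searched on both strands, was present in *Fos* alone among the 6, against 12.4% of all promoters. The letters of the AP-1 site TGANTCA, which 6.75% of promoters held, were in none of the 6 windows. The longer TGACGTCA, which 1.55% of promoters held, was in none of them either. Similar letters, such as tgacatca in the *Jun* line, were not searched for, so sites of other forms may be present. The upstream 250 bases of *Hspa1a* and *Hspa1b* were equal at 247 positions (98.8%). The transcripts of these neighbouring genes on mm10 chromosome 17, *Hspa1a* (ENSMUSG00000091971, 34969190 to 34972156) and *Hspa1b* (ENSMUSG00000090877, 34956436 to 34959238), are alike as well. Of the 31-base words of the 2803-base *Hspa1b* transcript, 67.5% also occur in the 2967-base *Hspa1a* transcript. The authors' counting, which gave whole reads, may therefore have placed some reads on the wrong gene of the pair. Their separate values are uncertain for that reason.

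Scores of HEC cells ranged from -0.94 to 1.77 with a median of 1.06. The lowest score on the high side was 1.267, in HEC 21, next to 1.252 in HEC 9 just outside. On the low side HEC 6 lay just inside at 0.694 and HEC 12 just outside at 0.765. The upper cut therefore passes between cells of nearly equal score. The high-score cells in falling order were HEC 19, 5, 1, 3, 15, 22, 24 and 21, and the low-score cells were HEC 6, 14, 8, 16, 10, 2, 7 and 20.

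The last 3 of the low-score cells stood apart, with scores of -0.64 in HEC 2, -0.77 in HEC 7 and -0.94 in HEC 20, whereas the other 21 HEC cells were at 0.378 or more. Scores of the 24 AEC cells ran from -2.56 to 0.00, so that HEC 2, 7 and 20 lay inside the AEC range and the other 21 HEC cells lay above it. The top of that range came from AEC 1, with 14242 reads. Over the 18 AEC cells at least as deep as the shallowest HEC cell the highest score was -0.75. HEC 7 and HEC 20 lay inside that narrower range, and HEC 2 lay above it. HEC 7 and HEC 20 also went against the HEC label in other genes. *Runx1*, which endothelial cells need to become blood, was at 0.145 in HEC 7 and 0.221 in HEC 20, under all other HEC cells, of which the lowest was at 0.873. HEC 7 had the highest arterial and endothelial sums of all HEC cells, at 79.2 and 162.3 reads per 10000. HEC 20 had the lowest endothelial sum, at 18.5, and the lowest sum of hemogenic genes, at 10.3. HEC 2 had *Runx1* at 2.48 and, at 92.5, the highest summed level of G2/M phase genes. Results that rest on these cells are therefore also given without HEC 7 and HEC 20, and without HEC 2 as well, with 8 and 8 cells chosen again from those left. HEC 12 and HEC 13 then joined the low side, and HEC 23 too when HEC 2 was also left out. Values without 1 cell were made the same way. HEC 12 then joined the low side when a low-score cell was left out, and HEC 9 the high side when a high-score cell was. All such values reflect the cells that joined as well as the cells left out.

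**Figure D1:**
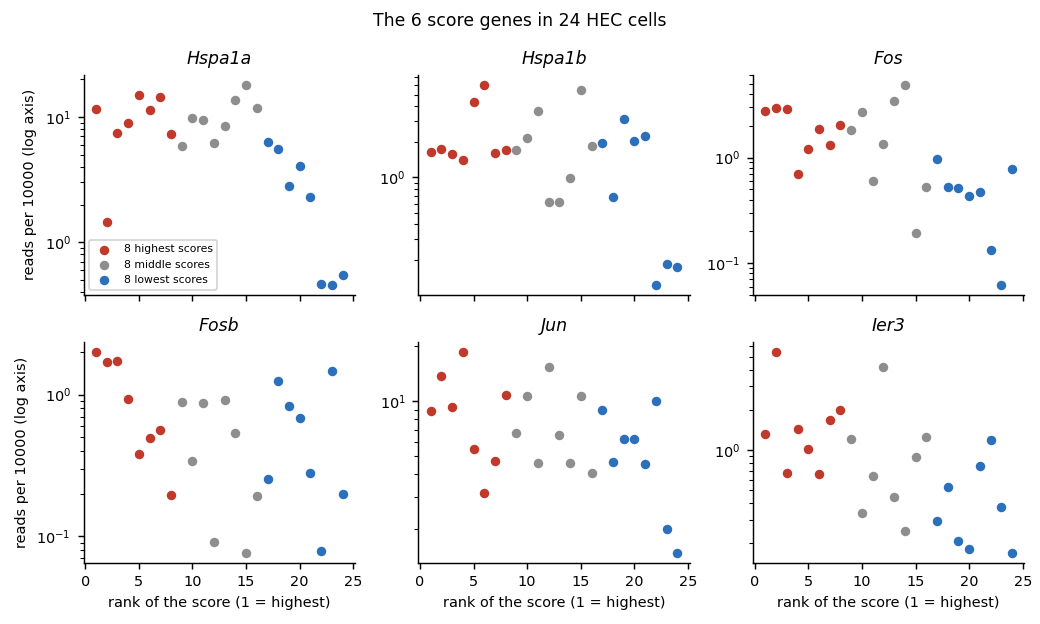
Level of each score gene, in reads per 10000 on log axes, in the 24 HEC cells ordered by the rank of the score with 1 the highest. Red points are the 8 high-score, grey the 8 middle and blue the 8 low-score cells. *Hspa1a* drops below 0.6 in the last 3 cells, while HEC 5 at rank 2 has only 1.46.

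*Hspa1a* ranged from 1.46 to 14.9 reads per 10000 with a median of 10.2 in high-score cells, against 0.455 to 6.28 with a median of 2.55 in low-score cells. The sides overlapped through HEC 5 alone, whose 1.46 was the lowest value of the high side. The means were 9.71 ± 4.40 and 2.81 ± 2.32 (SD, n = 8 cells each), a log2 ratio of 1.75 that was 0.59 without HEC 7 and HEC 20 and 0.26 without HEC 2 too. HEC 12 and HEC 13, and then HEC 23, joined the low side with 11.9, 18.2 and 13.6, so these lower ratios reflect the joining cells as well. *Hspa1b* averaged 2.51 ± 1.73 in high-score cells and 1.31 ± 1.16 in low-score cells, with medians of 1.67 and 1.32 and a log2 ratio of 0.89. That ratio was 0.55 without HEC 22 and 0.20 without HEC 7 and HEC 20, when HEC 13 joined the low side with 5.43.

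*Fos* (ENSMUSG00000021250, chromosome 12, 85473890 to 85477273) ranged from 0.706 to 2.95 with a median of 1.95 in high-score cells, and from 0.0621 to 0.968 with a median of 0.498 in low-score cells. Only HEC 3 on the high side lay inside the low-score range. Its log2 ratio was 1.81, and 1.85 without HEC 7 and HEC 20. Without HEC 2 as well, when HEC 23 joined the low side with 4.91, it was 0.82. *Ier3* (ENSMUSG00000003541, chromosome 17, 35821684 to 35822923), which encodes a regulator of cell survival, averaged 1.78 ± 1.55 in high-score cells, of which HEC 5 held 38.2%, and 0.462 ± 0.356 in low-score cells, a log2 ratio of 1.74. *Jun* (ENSMUSG00000052684, chromosome 4, 95049034 to 95052222) averaged 9.33 ± 5.08 and 5.52 ± 3.03 on the high and the low side, a log2 ratio of 0.75. That was 0.50 without HEC 3 and 0.95 without HEC 2. *Fosb* (ENSMUSG00000003545, chromosome 7, 19302696 to 19310051) averaged 0.996 ± 0.701 in high-score cells and 0.630 ± 0.520 in low-score cells, a log2 ratio of 0.59. It was at 0.39 without HEC 19 and 0.94 without HEC 7. For *Jun*, *Fosb*, *Hspa1b* and *Ier3* the difference of the means was smaller than the SD on the high side.

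The heat-shock and the immediate-early members of the score varied together only weakly. Over the 24 HEC cells the mean of *Hspa1a* and *Hspa1b* and the mean of *Fos*, *Fosb*, *Jun* and *Ier3*, both on the log2 scale, had a Spearman rho of 0.15 and a Pearson r of 0.33. Without HEC 7 and HEC 20 the rho was -0.10, and without HEC 2 too it was -0.23. These cells were left out for their low score, which is made of both parts. Such a choice by itself tends to lower the rho between the parts, so these values cannot show how the parts relate. All these points share their depth within a cell, and the coefficients are descriptions over cells of 1 sample. HEC 5 had the highest immediate-early mean of all, 2.176, with a heat-shock mean of 0.76. HEC 13, a cell between the cuts, had the highest heat-shock mean, 3.33, with an immediate-early mean of -0.22. Of single pairs, *Jun* and *Ier3* had a rho of 0.50 and *Hspa1a* and *Hspa1b* one of 0.43, whereas *Hspa1b* and *Fos* had one of -0.09. A score over the heat-shock pair alone kept 4 of the 8 high-score and 5 of the 8 low-score cells, and 1 high-score cell moved to the low side. A score over the 4 immediate-early genes kept 5 high-score and 6 low-score cells.

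**Figure D2:**
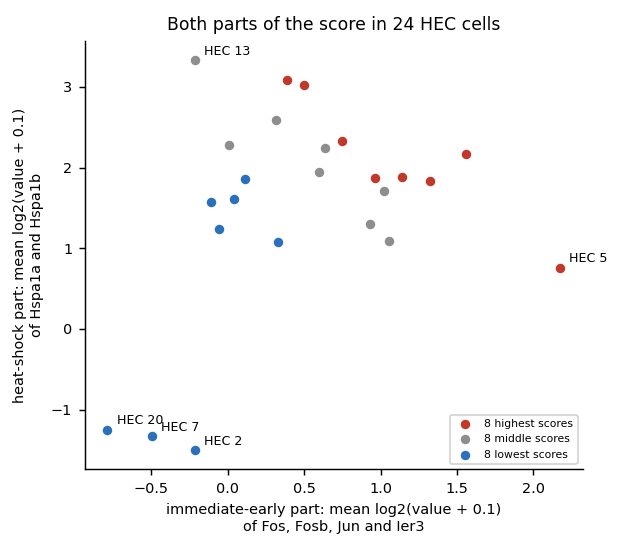
Mean log2(value + 0.1) of *Hspa1a* and *Hspa1b* (vertical) against that of *Fos*, *Fosb*, *Jun* and *Ier3* (horizontal) in 24 HEC cells, coloured by side of the score. HEC 2, 7 and 20 form a separate cluster with heat-shock means between -1.50 and -1.25, and among the other 21 cells rho is -0.23. Leaving out cells by their score, as here, by itself tends to lower this rho.

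Depth moved with the score to some degree. High-score cells had a median of 1360610 reads (range 469707 to 8897958), against 613335 (range 96410 to 4540729) in low-score cells, and the rho of reads with the score was 0.30. After every cell was thinned to 96410 reads, the number of genes above 0 was 7457 ± 637 in high-score cells and 7392 ± 616 in low-score cells (SD, n = 8 each), with a rho of 0.09. Thinning kept 7 of the 8 cells on each side. Mitochondrial transcripts took 7.44 ± 0.955% of the reads in high-score cells and 5.94 ± 1.29% in low-score cells, with a rho of 0.45. The part of depth and of mitochondrial share in the differences described here was not tested beyond the thinning.

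Over 3251 genes, which averaged at least 0.5 reads per 10000 over HEC cells, were above 0 in 12 or more of these and did not belong to the score, most levels were alike on both sides. The median log2 ratio of high-score over low-score cells was -0.02, and 47.9% of genes were above 0. A log2 ratio of at least 1 was found for 87 genes (2.68%) and one of -1 or less for 93 genes (2.86%). These numbers without HEC 7 and HEC 20 were 56 (1.72%) and 78 (2.4%). All log2 ratios are of means with 0.1 added, which understates the difference of genes with low levels. The 8 high-score values lay entirely above the 8 low-score values for 1 gene (0.0308%) and entirely below them for 0 genes (0%). A rho with the score of at least 0.5 over 24 cells was found for 45 genes (1.38%) and one of -0.5 or less for 18 genes (0.554%).

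The gene without overlap was *Obsl1* (ENSMUSG00000026211, chromosome 1, 75479310 to 75506452), which encodes a cytoskeletal adaptor protein. It ranged from 0.723 to 2.82 with a median of 1.03 in high-score cells and from 0.208 to 0.642 with a median of 0.479 in low-score cells. Its log2 ratio was 1.28, and 1.46 without HEC 7 and HEC 20. HEC 12 and HEC 13, which then joined the low side, had 0.111 and 0.192, below all 8 low-score cells. The rho of *Obsl1* with the score was 0.71 over all 24 cells and 0.73 without HEC 7 and HEC 20. It did not grade evenly along the score, since HEC 4, a middle cell, had 0.0365, below all low-score cells.

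The highest rho, 0.72, was that of *Kdm1a*, which encodes the histone demethylase LSD1. It ranged from 0.779 to 1.26 with a median of 1.11 in high-score cells, against 0.269 to 1.12 with a median of 0.597 in low-score cells, and the rho without HEC 7 and HEC 20 was 0.64. *Coro1a*, an actin regulator gene of white blood cells, *Timp3*, an inhibitor gene of matrix metalloproteinases, and *Klf6*, a zinc-finger transcription factor gene, each had a rho of 0.64. *Naa20*, the catalytic subunit gene of an N-terminal acetyltransferase, had one of 0.63. *Srpk1*, a kinase gene for SR splicing factors, and *Git2*, an adaptor gene that acts on Arf GTPases, each had one of 0.61. *Spi1* (0.60) and *Ier2* (0.59) completed the 10 highest. Without HEC 7 and HEC 20 these genes other than *Kdm1a* and *Obsl1* had rho values between 0.48 (*Spi1*) and 0.58 (*Timp3*).

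The lowest rho, -0.69, was that of *Trir*, whose product interacts with the RNA component of telomerase. It ranged from 0.493 to 1.11 with a median of 0.731 in high-score cells and from 0.910 to 2.52 with a median of 1.57 in low-score cells. The rho was -0.66 without HEC 7 and HEC 20 and -0.76 without HEC 2 too. *Tmem167* (-0.63), *Lap3* (-0.59), which encodes an aminopeptidase, and *Slc38a2* (-0.58), an amino acid transporter gene, were next. *Dcun1d5* (-0.56), a neddylation gene, the mitochondrial ribosome gene *Mrps11* (-0.54), *Rpl13a* (-0.54), the mitochondrial import gene *Timm17b* (-0.52), the centromere gene *Cenpx* (-0.52) and *Yipf5* (-0.51) completed the 10 lowest. Of these 10 genes, 4 also had a rho of -0.5 or less without HEC 7 and HEC 20, namely *Trir*, *Tmem167* (-0.58), *Lap3* (-0.51) and *Cenpx* (-0.51). The other 6 had values between -0.49 and -0.42.

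By the ratio of means, *Hspb1* stood highest among all genes named, with a log2 ratio of 2.14. It was spread unevenly, from 0.151 to 5.91 with a median of 0.763 in high-score cells and from 0.0809 to 1.14 with a median of 0.185 in low-score cells. HEC 19 held 43.2% of the high-score sum, and 4 of the 8 high-score cells had 0.354 or less. The ratio was 1.64 without HEC 7 and HEC 20. *Nbr1*, an autophagy receptor gene, had a log2 ratio of 1.70, *Wwc2* one of 1.67, *Smad7*, an inhibitor gene of TGF-beta signaling, one of 1.63, and *Heatr5a* one of 1.57. *Klf6* and *Timp3* followed at 1.49 each. *Ctla2a*, a cysteine protease inhibitor gene, was at 1.46 and *Rsf1*, a chromatin remodelling gene, at 1.44, and without HEC 7 and HEC 20 these were 0.57 and 0.48. HEC 13, which then joined the low side, had 2.39 and 1.66. Without HEC 14 alone, when HEC 12 joined the low side with 1.36, *Rsf1* was at 0.90. The hemogenic genes *Fli1*, *Mycn* and *Alox5ap* filled the other places among the 12 highest.

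Many of the 12 lowest ratios rested on 1 cell. *Tmem100*, an endothelial gene downstream of BMP signaling, had a log2 ratio of -2.95, but HEC 7 held 77.3% of its low-score sum and the log2 ratio of the medians was -0.19. *Rcsd1* (-2.52) and *Cnot9* (-1.69) had 84.3% and 64.5% of their low-score sums in HEC 8, and *Mest* (-2.26), an imprinted gene, had 67.4% in HEC 20. Without HEC 8 the ratios of *Rcsd1* and *Cnot9* were -0.16 and -0.36, and without HEC 20 that of *Mest* was -0.84. HEC 7 held the largest part for *Ctsh* (62.2%), *Emcn* (61.3%), *Gja4* (54.3%), *Sat1* (48.7%), *Cald1* (45.6%) and *Gja5* (34.9%). Without HEC 7 the ratio was -1.16 for *Tmem100*, -1.11 for *Ctsh*, -0.60 for *Emcn*, -1.22 for *Gja4*, -1.12 for *Sat1* and -1.09 for *Cald1*. *Pdia5*, a protein disulfide isomerase gene of the endoplasmic reticulum, was spread over more cells, with a median of 0.133 in high-score and 0.717 in low-score cells and a log2 ratio of -1.82, or -1.55 without HEC 7 and HEC 20. *Cenpf*, a kinetochore gene of dividing cells, had medians of 0.208 and 1.05 on the high and the low side and a ratio of -1.70.

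Other immediate-early genes were higher in high-score cells, mostly with the immediate-early members of the score. Of 36 genes listed, 34 were found and 17 passed the minimum, of which 13 were above 0, 5 at or above 1 (29.4%, against 2.68% of all genes) and 1 at or below -1 (5.88%, against 2.86%). The median was 0.61, or 0.44 without HEC 5 and 0.99 without HEC 10. Without HEC 7 and HEC 20 the median was 0.54 and 4 members were at or above 1, against 1.72% of all genes. Without HEC 2 too the median was 0.46 and the number 1, against 1.29%. The mean of the list had a rho of 0.54 with the score, of 0.60 with the immediate-early members and of 0.17 with the heat-shock pair. It was 0.46 with the score without HEC 7 and HEC 20 and 0.39 without HEC 2 too. *Klf6* ranged from 2.92 to 20.9 with a median of 6.54 in high-score cells and from 0.145 to 7.18 with a median of 2.24 in low-score cells. *Egr1*, a zinc-finger transcription factor gene, averaged 1.18 ± 1.01 in high-score and 0.409 ± 0.290 in low-score cells. Its log2 ratio was 1.33, and 0.65 without HEC 7 and HEC 20, when HEC 13 joined the low side with 2.73. *Zfp36*, which encodes a protein that destabilises mRNAs, was at 1.22, but at 0.78 without HEC 3 and 2.04 without HEC 10. The phosphatase gene *Dusp1* was at 1.16, the AP-1 gene *Junb* at 1.00 and *Ier2* at 0.99. *Atf3*, a stress-induced transcription factor gene under the minimum of level, was at 1.29. *Ccn1*, a matrix protein gene, was the member at or below -1, with -1.48, or -0.82 without HEC 20, which held 41.0% of the low-score sum.

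Heat-shock genes outside the score did not share this pattern. Of 30 listed, 23 passed, 16 were above 0, and *Hspb1* alone was at or above 1 (4.35%, against 2.68% of all genes). None was at or below -1, against 2.86%, and the median was 0.09, near that of all genes. The mean of the list had a rho of 0.19 with the score and of 0.27 with *Hspa1a* and *Hspa1b*. The constitutive HSP70 gene *Hspa8* had means of 39.8 ± 19.9 in high-score and 37.9 ± 7.85 in low-score cells, a log2 ratio of 0.07. *Hsp90aa1*, the inducible HSP90 gene, had means of 34.0 ± 8.42 and 23.4 ± 11.8 on the high and the low side, a ratio of 0.54 with a rho of 0.51, and a ratio of 0.35 without HEC 7. The HSP70 partner genes *Hsph1* and *Dnajb1* were at 0.63 and 0.36, and at 0.18 and 0.07 without HEC 7 and HEC 20. Both moved with the choice of cells. *Hsph1* was at 0.16 without HEC 7, when HEC 12 joined the low side with 3.07, and *Dnajb1* at -0.03 without HEC 19. Of 11 genes of the unfolded protein response, the stress response of the endoplasmic reticulum, 9 were below 0, with a median of -0.42 that was -0.22 without HEC 20 and -0.12 without HEC 7 as well. The chaperone gene *Hspa5* was at -0.51, *Dnajb9* at -0.83 (-0.51 without HEC 7) and *Manf* at -0.71 (-0.37 without HEC 20), and the list mean had a rho of -0.59 with the heat-shock pair and 0.03 with the immediate-early members. Of 10 genes of the integrated stress response, 9 were above 0, with a median of 0.42 and a list rho of 0.47, among them *Cebpb* at 0.98 and *Ppp1r15a* at 0.80. *Cebpb* was at 0.82 without HEC 24 and 1.53 without HEC 10. *Ppp1r15a* was at 0.47 without HEC 5 and 1.16 without HEC 16.

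Hemogenic genes were higher in high-score cells, and less so without HEC 7 and HEC 20, when HEC 12 and HEC 13 joined the low side. The part of the cells left out and of the cells that joined in this change was not tested. Of 42 genes listed, 41 were found and 33 passed, of which 25 were above 0 and 9 at or above 1 (27.3%, against 2.68% of all genes), with none at or below -1, and the median log2 ratio was 0.61. Without HEC 7 and HEC 20 the median was 0.31 and 2 of 33 members were at or above 1, against 1.72% of all genes, and without HEC 2 too the median was 0.29 and the number 0, against 1.29%. The members summed to 62.7 ± 7.93 reads per 10000 in high-score cells (range 53.7 to 75.4) and 44.7 ± 19.03 in low-score cells (range 10.3 to 73.7). The low side thus reached nearly as high as the high side, in HEC 10. The list mean had a rho of 0.66 and a Pearson r of 0.81 with the score over 24 cells, of 0.55 and 0.57 without HEC 7 and HEC 20, and a rho of 0.51 without HEC 2 too. It was 0.40 with the heat-shock pair and 0.51 with the immediate-early members. Several members, among them *Alox5ap*, *Itgb3*, *Ptpn6* and *Cd47*, were on the list because earlier results of these data had them high in HEC cells.

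**Figure D3:**
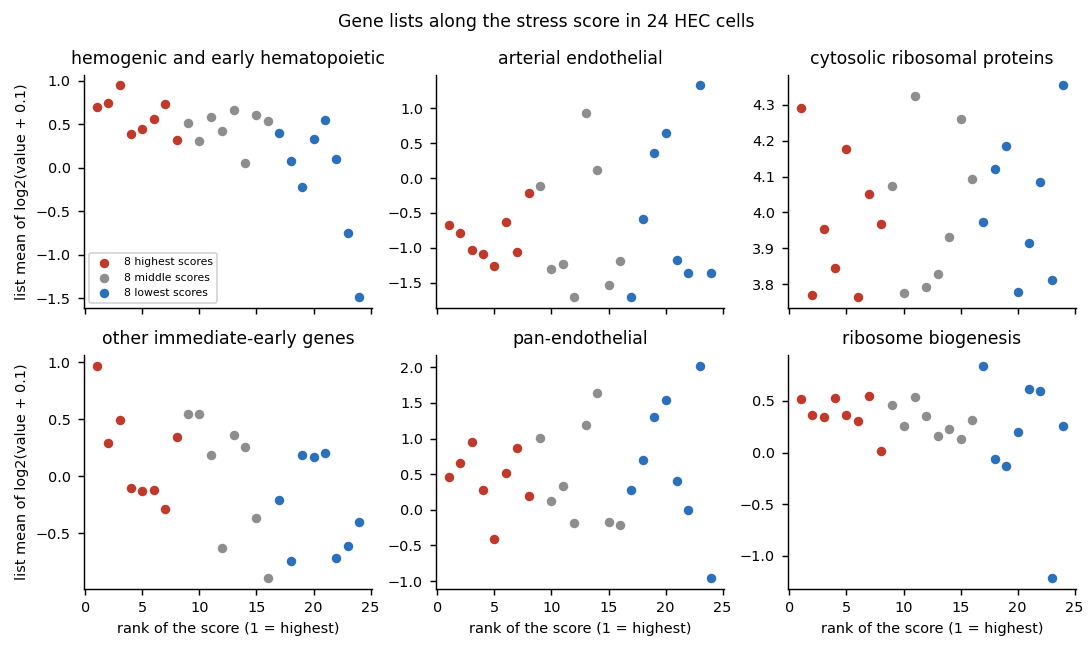
Mean log2(value + 0.1) over the members of 6 gene lists that passed the minimum, in 24 HEC cells ordered by the rank of the score with 1 the highest, red for high-score, grey for middle and blue for low-score cells. The hemogenic mean is lowest in the last 2 cells, HEC 7 and HEC 20, and the arterial and ribosomal means show no order along the score.

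*Spi1*, which encodes the myeloid transcription factor PU.1, ranged from 1.01 to 3.33 with a median of 2.39 in high-score cells and from 0.152 to 2.23 with a median of 0.641 in low-score cells. The sides overlapped, since HEC 16, HEC 2 and HEC 10 had between 1.71 and 2.23. Its log2 ratio was 1.21, and 0.58 without HEC 7 and HEC 20. HEC 12 and HEC 13, which then joined the low side, had 2.63 and 2.31. *Fli1*, an ETS factor gene of endothelium and blood, ranged from 0.732 to 3.62 with a median of 1.47 in high-score cells and from 0.0941 to 0.932 with a median of 0.492 in low-score cells. Its ratio of 1.48 was 1.13 without HEC 7 and HEC 20, and it is one of the 2 members that stayed at or above 1. *Bcl11a*, the other, was at 1.22 and then 1.02. *Mycn*, a MYC family gene, was at 1.44 and 0.57, *Alox5ap*, a leukotriene synthesis gene, at 1.44 and 0.47, and *Coro1a* at 1.12 and 0.45, with and without HEC 7 and HEC 20 in turn. HEC 13, which then joined the low side, had *Mycn* at 5.54. Without HEC 7 alone *Alox5ap* was at 0.66 and *Coro1a* at 0.48, when HEC 12 joined the low side with 3.48 and 5.28.

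*Runx1* itself averaged 3.18 ± 1.49 in high-score and 1.93 ± 1.48 in low-score cells, with ranges of 0.873 to 5.48 and 0.145 to 4.29 and a log2 ratio of 0.70. That was 0.48 without HEC 7 and HEC 20. *Neurl3*, which encodes an E3 ubiquitin ligase, averaged 3.07 ± 0.839 and 1.70 ± 1.01 on the high and the low side, a ratio of 0.82, and *Myb*, a transcription factor gene of definitive blood formation, was at 0.70. *Kit*, the stem cell factor receptor gene, was at 0.64, or 0.36 without HEC 22, and *Procr*, the protein C receptor gene, at 0.82. *Gfi1*, a repressor gene downstream of *Runx1*, was at 0.36, with 41.5% of the high-score sum in HEC 1, at -0.10 without that cell and at 0.76 without HEC 14. *Adgrg1*, an adhesion receptor gene of blood stem cells, was at 0.49, but at 0.19 without HEC 7 and -0.06 without HEC 20 too. *Cd44* (-0.28), *Ikzf2* (-0.25) and *Hlf* (-0.36), which encodes a PAR bZIP transcription factor, were lower in high-score cells by less than their spread between cells.

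**Figure D4:**
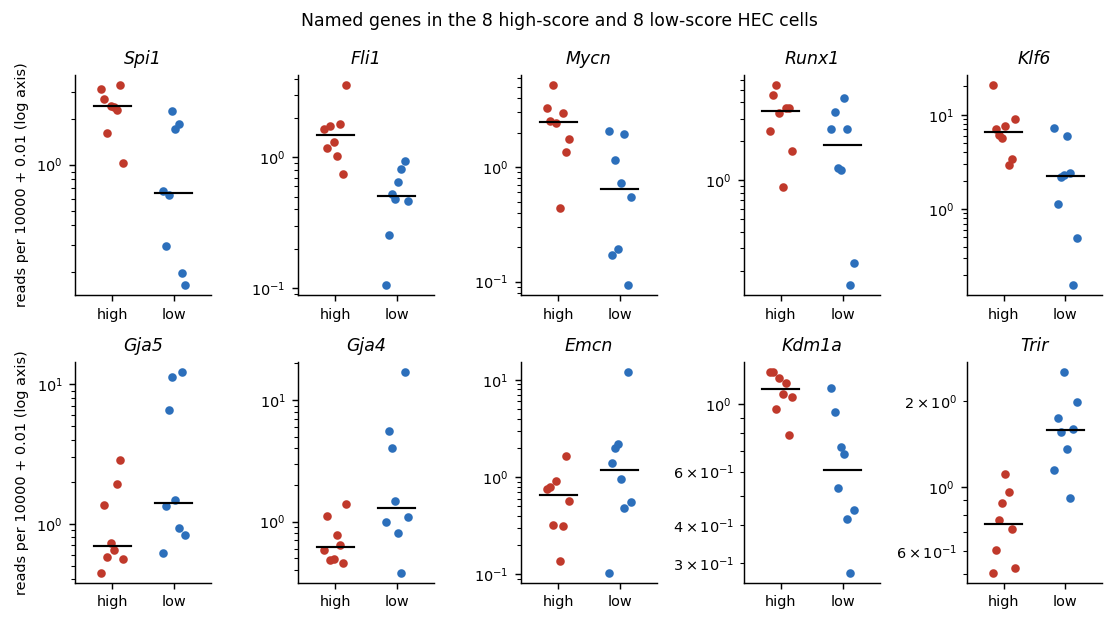
Level of 10 named genes, in reads per 10000 plus 0.01 on log axes, in the 8 high-score (left) and 8 low-score (right) HEC cells, with a bar at each median. *Spi1* has medians of 2.39 and 0.641 on the high and the low side, and the low side of *Gja4* reaches 17.02 in HEC 7.

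Several arterial genes were lower in high-score cells, while the mean over the arterial list did not follow the score. Of 29 listed, 14 passed, of which 4 were above 0, 6 were at or below -1 (42.9%, against 2.86% of all genes) and 0 at or above 1, with a median of -0.59. When HEC 7 and HEC 20 were left out, 4 of the 14 were at or below -1, against 2.4% of all genes, 1 was at or above 1, and the median was -0.16. Without HEC 2 too 5 were at or below -1, against 2.46% of all genes, and the median was -0.39. The list mean had a rho of 0.02 with the score over all 24 cells. The sum was 11.999 ± 5.32 in high-score cells and 24.4 ± 25.3 in low-score cells, whereas the medians were 11.2 and 12.7. *Gja5*, an arterial connexin gene, ranged from 0.436 to 2.84 with a median of 0.679 in high-score cells and from 0.605 to 12.3 with a median of 1.40 in low-score cells. Its log2 ratio was -1.87. It was -2.67 without HEC 7 and HEC 20, but HEC 12, a middle cell that then joined the low side with 39.1, held 63.4% of that side's sum. Without HEC 6, when HEC 12 also joined, it was -2.92. *Gja4*, another connexin gene, ranged from 0.445 to 1.39 in high-score cells and from 0.370 to 17.02 in low-score cells, with a ratio of -2.27, or -1.15 without HEC 7 and HEC 20. *Nrp1*, a receptor gene for VEGF and semaphorins, was at -1.69 and at -0.95 without HEC 7, *Hey1*, a Notch effector gene, at -1.58 and -0.48 without HEC 7 and HEC 20, and *Epas1*, a hypoxia-inducible factor gene, at -1.05.

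The Notch receptor gene *Notch1* had means of 0.597 ± 0.267 in high-score and 0.612 ± 0.670 in low-score cells. Its ligand gene *Dll4* and the effector gene *Hey2* lay under the minimum of level, as did *Sox17* and *Cxcl12*. *Sox17*, an arterial transcription factor gene, reached 3.12 in HEC 21 on the high side, 80.2% of that side's sum, with medians of 0.0797 in high-score and 0.136 in low-score cells and a log2 ratio of 0.75 that was -0.80 without HEC 21. *Efnb2*, the arterial ephrin gene, was at -0.76 by means and at 0.68 by medians. It was at -0.08 without HEC 7, and at -0.23 with HEC 7 left out and no cell added. Of 28 pan-endothelial genes, 25 passed, of which 6 were above 0, 3 at or below -1 (12%, against 2.86% of all genes) and 1 at or above 1 (4%, against 2.68%), with a median of -0.59 and a list rho of -0.03. The median without HEC 7 and HEC 20 was -0.18, and 0 members were at or below -1, against 2.4% of all genes. *Cdh5*, the VE-cadherin gene, had means of 2.78 ± 1.38 and 3.29 ± 2.178 on the high and the low side, and *Kdr*, a VEGF receptor gene, 0.979 ± 0.609 and 1.29 ± 1.39. Without HEC 7 alone, when HEC 12 joined the low side, the medians of the arterial and the pan-endothelial list were -0.17 and -0.06. *Kdr* then turned to 0.31, and to 0.19 with HEC 7 left out and no cell added. Of 13 venous genes, 3 passed, with a median of -1.03, or -0.16 without HEC 7.

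Ribosomal protein genes did not follow the score either. All 81 cytosolic ribosomal protein genes passed, 25 were above 0, and the median log2 ratio was -0.06. None was at or above 1, against 2.68% of all genes, or at or below -1, against 2.86%. They summed to 1506 ± 189 reads per 10000 in high-score and 1567 ± 194 in low-score cells, and the list mean had a rho of -0.17 with the score. The rho was 0.18 with the heat-shock pair and -0.29 with the immediate-early members. *Rps2* averaged 35.3 ± 4.797 and 36.0 ± 9.63, *Rpl3* 18.7 ± 2.77 and 18.6 ± 3.33, and *Rps3* 24.2 ± 2.38 and 21.8 ± 3.12 on the high and the low side. *Rpl17* was at -0.51 with 72.3 in HEC 16, and at 0.09 without that cell. Ribosomal protein genes have many near-identical pseudogenes, on which some of their reads can be placed. Of 33 ribosome biogenesis genes, 17 were above 0, with a median of 0.02 and a list rho of 0.27. *Nop2*, a nucleolar methyltransferase gene, was the member at or above 1 (3.03%, against 2.68% of all genes), at 1.16. The nucleolin gene *Ncl* (-0.08), the fibrillarin gene *Fbl* (0.02) and *Npm1* (0.13), the nucleophosmin gene, lay near 0. The sums were 87.5 ± 9.67 in high-score cells and 85.3 ± 28.5 in low-score cells, where HEC 7 had the lowest, 37.4, and HEC 2 the highest, 124.4.

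**Figure D5:**
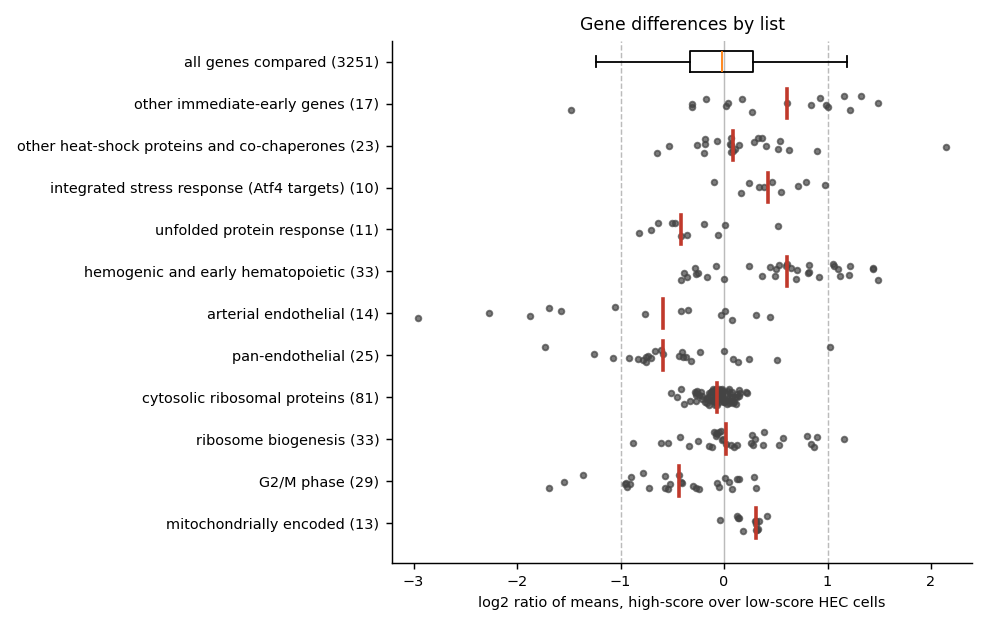
Log2 ratio of means, high-score over low-score HEC cells, for the members of 11 gene lists that passed the minimum (points, with a red bar at the median) below a box of all 3251 genes without its outliers. Numbers in brackets count the genes, and dashed lines mark -1 and 1. Hemogenic and other immediate-early genes have medians of 0.61 each, and cytosolic ribosomal proteins one of -0.06.

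Genes of the G2/M phase were mostly lower in high-score cells. Of 29 such genes, 22 were below 0, with a median of -0.43, a list rho of -0.19 and 3 members at or below -1, *Cenpf*, *Ube2c* and *Cdc20* (10.3%, against 2.86% of all genes). Without HEC 7 and HEC 20 the median was -0.52 and 6 of 29 were at or below -1, against 2.4% of all genes. Without HEC 2 too the median was -0.35 and the number 2, against 2.46%. Their sum was 33.7 ± 21.4 in high-score and 49.0 ± 25.7 in low-score cells, within the spread between cells. For S phase genes the median was 0.10, or -0.17 without HEC 7 and HEC 20. Medians of the other lists were -0.21 for p53 and apoptosis genes, -0.02 for Nrf2 targets, 0.04 for translation factors, -0.05 for glycolysis, -0.03 for SR splicing factors and -0.40 for 3 nuclear long noncoding RNAs, which turned to 0.08 without HEC 16. Genes of NF-kB and interferon responses had a median of -0.42, and of -0.21 without HEC 7. Of 13 mitochondrially encoded genes, 12 were above 0, with a median of 0.31 and a rho of 0.43, or 0.17 by median without HEC 15. The 29 nuclear genes of the respiratory chain were at -0.11 by median.

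Markers of other cell types were low or shared. Erythroid genes, chiefly globins, summed to 44.2 ± 12.5 (range 27.1 to 67.1) in high-score and 48.7 ± 30.6 (range 27.0 to 98.4) in low-score cells, with 6 of 13 listed genes passing. Macrophage genes summed to 0.317 to 3.45 in high-score cells and to 0.0828 to 1.79 in low-score cells, with 1 of 13 passing, *Lyz2*, at a log2 ratio of 0.84, or 0.28 without HEC 3. Mesenchymal genes summed to 2.83 to 37.6 in high-score cells, where HEC 1 was highest with *Acta2* at 31.1, and to 2.72 to 11.6 in low-score cells, where HEC 20 was highest. Lymphoid genes summed to at most 0.242 in high-score and 0.341 in low-score cells, megakaryocyte genes to 1.45 and 2.004, neural genes to 1.68 and 3.002, and epithelial genes to 2.28 and 3.68 at most on the high and the low side. The part of these cell types in the differences was not tested.

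In AEC cells the score had a median of -1.48, and AEC 1, with 14242 reads, had the highest. Over the 18 AEC cells at least as deep as the shallowest HEC cell, the hemogenic list had a rho of 0.12 with the score, the arterial list one of 0.04 and cytosolic ribosomal proteins one of 0.02. Other immediate-early genes had a rho of 0.46 and other heat-shock genes one of 0.45 in these cells. Over all 24 AEC cells the values were 0.36, -0.22, -0.22, 0.16 and 0.14 for the 5 lists in the same order. Whether any rho differs between HEC and AEC cells was not tested.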

How the data were processed

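Each of the 48 deposited tables holds, per transcript, a signal that the authors scaled to reads per 10000 reads of the cell. Per the submitters' processing notes, minimap2 2.18-r1015, Salmon 1.1.0 and build mm10 were used (filters not stated). Values were whole multiples of 1 read within 0.01 in 100% of HEC values, which gave each cell's reads. Transcripts were matched to GENCODE M21 (52799 of 52927, the other 128 left out) and summed to 21435 genes. Of genes sharing a symbol, the more expressed was used. No 2 HEC cells correlated above 0.988 (Pearson r over genes).

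Log2 ratios use means of 8 and 8 cells with a pseudocount of 0.1; no test was made. Alternatives changed the pseudocount, filter, summary, scaling, depth, score genes and cells, with 2 sets of left-out cells added after seeing the data. Thinning used seed 20, and the ratio calculation was checked on simulated data. Genes were named by rule: a fixed set, the 12 highest and 12 lowest ratios whose medians share their sign, the 10 highest and 10 lowest rho values, and up to 4 members per list, without gene models. Members of lists beyond these, *Obsl1*'s and *Fosb*'s details and the motifs were picked after values were seen. The score, the cells and all 29 lists were chosen with earlier results of these data known. Depth, 96410 to 8897958 reads per HEC cell, limits the precision of low values. Python 3.11.15 ran matplotlib 3.10.9, scipy 1.17.1, pandas 2.3.3 and numpy 2.4.6.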

Additional observations from a re-analysis of the deposited data

Results flagged for a closer look

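Dixon's gap criterion was applied on the log2(value + 0.1) scale to the 8 cells of each side, for the list means and the named genes. It marked 33 of 364 sets of 8 values. Chance marks about 1 set in 20 when the values are independent and normally distributed. These sets need not be, since some values lie near 0 and the score genes chose the sides. None of the marks has a test of its cause. Values are reads per 10000 except for list means.

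Among high-score cells HEC 5 had *Hspa1a* at 1.46, apart from the other 7, and *Ube2c* at 2.76. HEC 21 stood high in *Sox17* (3.12) and *Tmem167* (3.10) and low in *Timp3* (0.106), *Lap3* (0.136), *Ndufa1* (0.0303) and the mean of the ribosome biogenesis genes (0.0134 on the log2 scale). HEC 22 was low in *Alox5ap* (0.110), *Naa20* (0.235) and *Npm1* (20.5) and high in *Hey2* (0.179). HEC 3 was low in *Rpl13a* (20.6) and *Bax* (0.268). HEC 19 was high in *Rps13* (5.80) and low in *Kcnq1ot1* (0.338), HEC 1 was high in *Acta2* (31.1), and HEC 15 had the lowest venous mean (-0.89 on the log2 scale).

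Among low-score cells HEC 7 was low in *Fbl* (0.207), *Bax* (0.166), *Ubtf* (0.0414) and *Eif1a* (0.0207), and in the mean log2 level of ribosome biogenesis (-1.22) and of other heat-shock genes (0.50). HEC 8, the shallowest HEC cell, was high in *Rcsd1* (15.4), *Cnot9* (11.7) and *Hells* (3.53) and low in *Mrps11* (0.207) and *Sqstm1* (listed at 0). HEC 16 was high in *Rpl17* (72.3) and low in *Rpl13a* (18.98). HEC 10 was high in *Zfp36* (2.184), and HEC 6 was low in *Trp53* (0.551).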

How the results depend on the processing

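The number of genes with a log2 ratio of at least 1, 87, was 4 with a pseudocount of 1, 175 by medians, 509 with no filter, 3 with a filter of a mean of 2 and 20 cells, 138 with 6 and 6 cells, 37 with 12 and 12, 51 without the 6 cells with the fewest genes after thinning, 56 without HEC 7 and HEC 20 and 42 without HEC 2 as well. Genes at -1 or less, 93, numbered 12 with a pseudocount of 1, 61 by the difference of mean log2 values, 659 with no filter, 7 with the stricter filter, 141 with 6 and 6 cells, 54 with 12 and 12 and 60 with a score over *Fos*, *Fosb*, *Jun* and *Ier3*. The hemogenic rho of 0.66 was 0.45 with the stricter filter, 0.40 with the heat-shock score, 0.51 with the immediate-early score, 0.55 without HEC 7 and HEC 20 and 0.51 without HEC 2 too. With the heat-shock score ribosomal proteins had a median of 0.13 and a rho of 0.18, and with the stricter filter ribosome biogenesis had a rho of -0.13. The settings without HEC 7 and HEC 20, and without HEC 2 too, were added after seeing the data; the cause of these changes was not tested. The sign turned with the heat-shock score for *Ier3* (-0.69), *Atf3* (-0.18), *Gja5* (0.71), *Wwc2* (-0.20), *Rsf1* (-0.085) and *Srpk1* (-0.031), without the 6 cells with the fewest genes for the venous median (0.059), *Ptprb* (0.17), *Stab1* (0.059) and *Ung* (-0.51), by medians for *Stab1* (0.32), and without HEC 2, 7 and 20 for *Ung* (-0.027). Leaving out 1 cell at a time gave 63 to 93 genes at or above 1 and 78 to 102 at or below -1. It also gave hemogenic medians of 0.45 to 0.67 and rho of 0.61 to 0.71, arterial medians of -0.77 to -0.17 and rho of -0.08 to 0.14, ribosomal protein medians of -0.11 to -0.01 and rho of -0.29 to -0.05, and ribosome biogenesis medians of -0.07 to 0.11 and rho of 0.18 to 0.40. Depth limits low values, since 1 read was worth more in shallow cells. No paired analysis was possible because the replicate numbers only name cells and no test was made.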

Other observations

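*Fosb* was the score gene with more than 1 transcript in use. Its 3782-base transcript Fosb-201 held 13.9% of the gene's level in high-score and 42.7% in low-score cells, and the 3523-base Fosb-207 held 76.8% and 49.5%. Fosb-201 was above 0 in 12 HEC cells and Fosb-207 in 13, and 98.3% of the 31-base words of Fosb-207 also occur in Fosb-201, so the assignment of reads between both is uncertain. These transcripts were looked at after the values were seen, and no difference between them was tested.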
